A study of Mus musculus with 32 samples.

Results

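Lung RNA from C57BL/6 mouse pups at postnatal day 14 was compared between 2 injection schedules that serve as controls in neonatal studies. The daily saline group (4 libraries) had saline injected into the peritoneum at 25 µl per g on each day between day 1 and day 13, and the water group (4 libraries) had nuclease-free water at 10 µl per g, on days 1 and 3 only. These 8 libraries, chosen by their treatment and age labels, are part of 32 libraries in the series, 20 of them from day 14. The liquid, the volume, the number of injections and the time since the last one all differ between the groups, so their parts in any difference cannot be told apart. The series was made to see how control interventions alone alter lung gene expression after birth, and 4 libraries from untreated pups of the same age are given beside the injected groups. The labels name whole lung, rinsed with PBS through the heart, and a stranded polyA library for every sample. They do not say that each library came from its own animal, and the p-values below take in only how far these libraries scatter, which may be in part technical.

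At this age the mouse lung is dividing its air sacs with new septa. Septa form where elastin-producing myofibroblasts, lipid-storing fibroblasts and a capillary network grow together, under VEGF from the epithelium and TGF-beta, retinoic acid and WNT signals in the mesenchyme. The capillaries hold aerocytes, which make apelin and lie at the gas exchange surface, and general capillary cells, which carry the apelin receptor and renew the vessel. Resident and circulating immune cells fill in during the same weeks. In bulk RNA, fewer cells of a type and less RNA per cell cannot be told apart.

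The 8 libraries held 8013928 to 11417785 exon reads and 16258 to 16834 genes with reads, and replicates differed by more than sampling noise in every pair. The lung markers Sftpc, Ager, Cldn5 and Pecam1 were high in all 8, with Sftpc at 9316 to 10760 CPM (counts scaled to library size) in daily saline and 7463 to 10609 CPM in water. Water replicate 3 stood apart on the first principal component, which carried 33.2% of the variance, and held RNA of other tissues: its skeletal muscle markers summed to 599 CPM, against 43.9 to 53.8 CPM in daily saline and 43.8 to 71.4 CPM in the other water libraries. Untreated replicate 1 was also high in some other-tissue markers. Its adipose markers summed to 171.6 CPM, against 53.9 to 84.7 CPM in the other untreated libraries, and its cardiac markers to 718.8 CPM, against 222.1 to 430.5 CPM. Xist, expressed from the inactive X of females, was high in daily saline replicates 2 and 3, whereas all 4 water libraries were low in Xist and high in Y-linked genes. Daily saline replicate 1 was also low in Xist but had only 73.2 CPM of the Y-linked Ddx3y, against 149 CPM in daily saline replicate 4 and 125 to 158 CPM in water. By these genes the groups were not balanced for sex, so the parts of sex and treatment in any difference cannot be fully told apart. Reads in introns made up 8.69%, 10.2%, 10.04% and 11.2% of the reads in genes in daily saline replicates 1 to 4, against 12.9%, 16.04%, 13.2% and 14.1% in water replicates 1 to 4. The intronic share did not overlap between the groups (10.0 ± 1.04% in daily saline and 14.1 ± 1.42% in water, SD, n = 4 each, exact permutation p = 0.0286, two-sided, the smallest p this design allows). In untreated lungs it was 10.9% to 15.5%.

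Of 14179 genes tested, 389 passed an adjusted p of 0.05 (2.74%), 147 of them higher in daily saline (1.04%) and 242 lower (1.71%). The test was edgeR's quasi-likelihood test with Benjamini-Hochberg adjustment, and all adjusted p-values below come from it. Most changes were small: the median log2 fold change was 0.27 among the rises and -0.38 among the falls, beside a median standard error of 0.0929 over all genes, and 49 genes changed at least 1.5-fold (5 higher and 44 lower). In 368 of the 389 the CPM ranges of the groups did not overlap (140 higher and 228 lower, where 5.26% and 5.99% of all genes tested had such ranges). The count leaned on single libraries. It was 28, 40, 167 and 154 without daily saline replicates 1, 2, 3 and 4 in turn, and 276, 112, 258 and 161 without water replicates 1, 2, 3 and 4. Of the 258 without water replicate 3, 217 were among the 389 (55.8% of them), and 19 genes (8 higher and 11 lower) passed whichever library was left out. With Xist as a covariate 356 genes passed, 269 of them among the 389. With only the libraries low in Xist, which are fewer, 1 gene passed (0 higher and 1 lower). A fit with the intronic share as covariate called 13 genes (8 higher and 5 lower), 7 of them among the 389. Without that covariate, daily saline against untreated gave 33 genes (0.233%), 3 higher (0.0212%) and 30 lower (0.212%), and water against untreated gave 7 (0.0494%), 3 higher (0.0212%) and 4 lower (0.0282%), and these comparisons share libraries with the one described here.

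**Figure D1:**
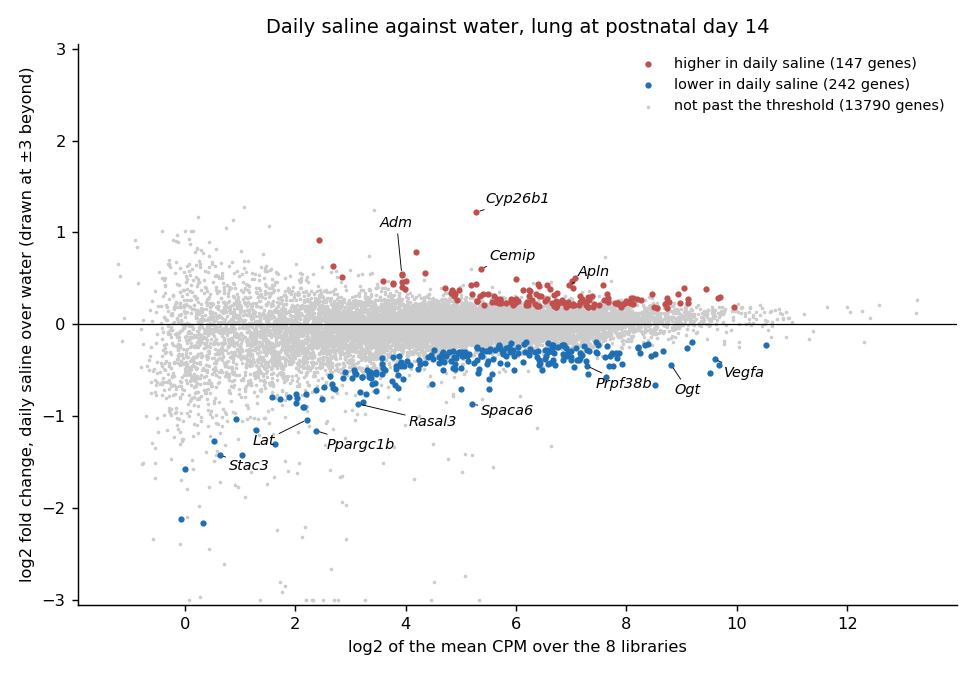
Each point is 1 gene, with the log2 of its mean CPM over the 8 libraries on the x axis and its log2 fold change, daily saline over water, on the y axis. Of the 147 rises in red only Cyp26b1 reaches a log2 fold change of 1, and the 242 falls in blue extend further down at low CPM, as at Stac3 and Ppargc1b.

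The 8 rises that passed with every library left out included secreted and surface proteins of the mesenchyme and vessels. Prss35, a secreted serine protease homologue (chr9:86743240-86758443 in the files' coordinates), had 164, 137, 150.3 and 149 CPM in daily saline, against 115, 109, 109 and 100.5 CPM in water. Every daily saline library was above every water library (log2 fold change 0.47, SE 0.076, adjusted p = 0.0053). Untreated lungs, at 124, 146, 118 and 133 CPM, were above water and overlapped daily saline. Nox4, an NADPH oxidase that makes hydrogen peroxide, had 90.7, 94.03, 90.2 and 90.2 CPM in daily saline, against 75.5, 74.5, 65.4 and 75.6 CPM in water. Its log2 fold change was 0.33 (SE 0.055, adjusted p = 0.00553), and untreated lungs, at 91.4, 97.3, 89.99 and 96.96 CPM, were close to daily saline. Nox4 was also lower in water than in untreated lungs (-0.37 on the log2 scale, adjusted p = 0.007), and it still passed with the intronic share as a covariate (adjusted p = 0.0483). Gfra2, the receptor for the neuron survival factor neurturin, averaged 111 ± 4.27 CPM in daily saline and 85.2 ± 6.48 CPM in water (SD, n = 4 each). Its log2 fold change was 0.38, and untreated lungs averaged 98.4 ± 4.55 CPM. Stmn2, which destabilises microtubules in growing nerve processes, averaged 97.7 ± 4.65 CPM in daily saline, 73.1 ± 7.14 CPM in water and 92.9 ± 3.75 CPM in untreated lungs (log2 fold change 0.42). Ckap4, an endoplasmic reticulum protein that anchors microtubules, averaged 157 ± 5.88 CPM in daily saline and 127 ± 9.13 CPM in water (log2 fold change 0.31), with untreated lungs at 136 ± 5.10 CPM. The other 3 of the 8, Apln, Cemip and Tgfb3, are described with their pathways.

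Some capillary genes of both kinds rose in daily saline. Of 13 aerocyte markers tested, 3 rose and 0 fell, 12 lay above 0 and the median log2 fold change was 0.12. Of 16 general capillary markers 4 rose and 0 fell, with 14 above 0 and a median of 0.12, where 1.04% of all genes tested rose and 48.8% lay above 0. Apln, the apelin ligand of aerocytes (chrX:48025146-48034852), had 134, 156, 149 and 131 CPM in daily saline, against 117, 97.1, 98.2 and 112 CPM in water. No water library reached the lowest daily saline library, and untreated lungs had 131, 145, 151 and 122 CPM (log2 fold change 0.43, SE 0.075, adjusted p = 0.00639). Aplnr, its receptor on general capillary cells, had 313, 329, 311 and 266 CPM in daily saline, against 239.9, 243, 257 and 257 CPM in water. The ranges did not overlap, daily saline replicate 4 being the lowest of its group, and untreated lungs had 286, 300.1, 301 and 292 CPM (0.29, SE 0.063, adjusted p = 0.0183). Among the other aerocyte genes, Ednrb, an endothelin receptor with mostly shared reads (reads that the unique count leaves out), rose by 0.30, and Itgb5, an integrin subunit that binds vitronectin, rose by 0.21 on the log2 scale. Car4, the membrane carbonic anhydrase that helps define aerocytes, did not pass (log2 fold change 0.11, adjusted p = 0.423).

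General capillary genes past the threshold were also Tmem100, a membrane protein induced by ALK1 signalling, Lyve1, a hyaluronan receptor, and Lphn2, an adhesion receptor. Tmem100 averaged 543 ± 32.9 CPM in daily saline and 463 ± 38.3 CPM in water, with a log2 fold change of 0.23. Lyve1 had 244, 246, 214 and 169 CPM in daily saline, against 159, 162, 155 and 174 CPM in water, and its ranges overlapped through daily saline replicate 4 (log2 fold change 0.42, adjusted p = 0.0282). Arterial, venous and lymphatic markers gave 2 rises of 17, Flt4, the VEGF-C receptor (0.21), and Ephb4, a venous ephrin receptor with shared reads (0.19). Of that list 10 lay above 0 (median 0.02), and Flt4 and Ephb4 each passed in 0 of the 8 fits with 1 library left out. The number of capillary calls varied with the fit. Without daily saline replicate 1 there was 1 aerocyte gene and 0 general capillary genes, as without daily saline replicate 2, without water replicate 3 there were 2 and 1, with the intronic share as a covariate 2 and 0, by DESeq2 3 and 6, and with exon and intron reads 7 and 6. Taking Xist as a covariate gave 2 and 3, and only the libraries low in Xist gave 0 and 0. Water replicate 3 had the lowest sum of general capillary markers, 5674 CPM, against 6416 to 7070 CPM in daily saline and 6162 to 6583 CPM in the other water libraries, and the part of its other-tissue RNA in this was not tested.

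Within the list of apelin, VEGF and angiopoietin genes 3 of 22 rose and 1 fell, where 1.04% of all genes tested rose and 1.71% fell. The one that fell was Vegfa. Vegfa, the main vascular growth factor of alveolar epithelium (chr17:46016993-46032377), had 634, 642, 676 and 741 CPM in daily saline, against 849, 904, 814 and 932 CPM in water. All 4 daily saline libraries were below all 4 water libraries, and untreated lungs spanned the gap with 665, 742, 757 and 884 CPM. Its log2 fold change was -0.38 (SE 0.083, adjusted p = 0.0192), and it passed in 4 of the 8 fits with 1 library left out. Its receptor gene Kdr was at 572, 623, 582 and 645 CPM in daily saline, against 541, 562, 509 and 552 CPM in water. That difference of 0.16 did not pass (adjusted p = 0.168), although it did with the intronic share as a covariate (0.37, adjusted p = 0.0385).

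Some genes of vessel tone rose too. Of 24 vasoactive peptides and receptors tested 4 rose and 0 fell (17 above 0, median 0.11), where 1.04% of all genes tested rose and 48.8% lay above 0. Adm, the vasodilator adrenomedullin (chr7:110627669-110629819), had 16.6, 20.8, 18.6 and 16.4 CPM in daily saline, against 14.8, 11.9, 12.5 and 10.2 CPM in water, a separation without overlap although water replicate 1 came close. Untreated lungs had 15.1, 16.3, 15.7 and 16.2 CPM, and the log2 fold change between the injected groups was 0.55 (SE 0.12, adjusted p = 0.0176). Npr3, the clearance receptor for natriuretic peptides, had 114, 105, 91.1 and 76.6 CPM in daily saline, against 71.6, 76.2, 67.1 and 69.5 CPM in water (0.44, adjusted p = 0.0218). Daily saline replicate 4 sat just above the highest water library. Ednra, the endothelin receptor of vascular smooth muscle, averaged 165 ± 2.55 CPM in daily saline and 139 ± 10.8 CPM in water (0.24, adjusted p = 0.0282), and Ednrb was the fourth. The peptide Edn1 itself did not pass (0.04, adjusted p = 0.913). In the list of nitric oxide and cyclic GMP genes 14 of 16 lay above 0 (median 0.09) and 1 passed. That was Gucy1a2, one alpha chain of soluble guanylyl cyclase, which senses nitric oxide, with 69.3, 79.9, 65.9 and 82.99 CPM in daily saline, against 55.7, 58.9, 47.96 and 49.95 CPM in water. Its ranges did not overlap, untreated lungs held 63.7, 58.97, 55.5 and 69.5 CPM, and the log2 fold change was 0.49 (SE 0.095, adjusted p = 0.013). Without daily saline replicate 2 none of the vasoactive and cyclic GMP genes passed, without daily saline replicate 1 there was 1 in each list, and by DESeq2 there were 5 and 2.

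**Figure D2:**
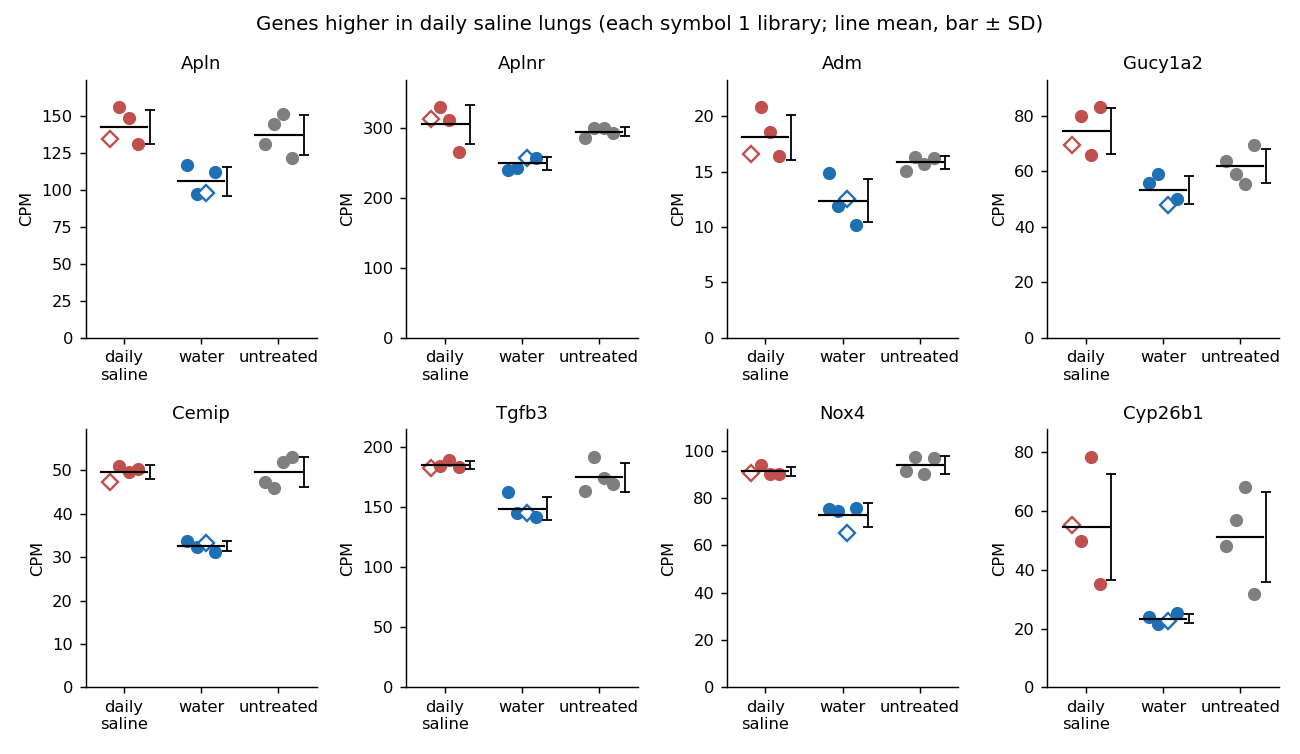
CPM of 8 genes in each library of the daily saline (red), water (blue) and untreated (grey) groups, with the group mean as a line and ± SD as a bar (n = 4). Open diamonds are daily saline replicate 1 and water replicate 3. Daily saline lies above water without overlap in every panel, and untreated libraries of Cemip, Nox4 and Apln lie above all 4 water libraries.

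In the mesenchyme and matrix, a few genes of several lists rose, where 1.04% of all genes tested rose and 48.8% lay above 0. Cemip, which cuts hyaluronan into short chains (chr7:83932857-84086692), had 47.4, 50.97, 49.7 and 50.2 CPM in daily saline, against 33.6, 32.4, 33.2 and 31.1 CPM in water. The 2 groups were far apart and untreated lungs, at 47.3, 46.03, 51.9 and 53.04 CPM, were close to daily saline (log2 fold change 0.60, SE 0.10, adjusted p = 0.00553). In the water against untreated comparison Cemip was lower by the same amount (-0.60, adjusted p = 0.0165). Chsy3, a chondroitin sulfate polymerase, had 17.1, 19.4, 16.7 and 18.7 CPM in daily saline, against 12.6, 11.1, 11.6 and 14.4 CPM in water (0.54, adjusted p = 0.0176). With Lyve1 these made 3 rises and 0 falls among 28 hyaluronan and chondroitin sulfate genes (median 0.07). Tgfb3, a TGF-beta ligand needed for lung branching and septation, had 182, 184, 189 and 183 CPM in daily saline, against 163, 145, 145 and 141 CPM in water, and 163, 191, 174 and 169 CPM in untreated lungs. The injected groups were separate (0.31, SE 0.056, adjusted p = 0.00668). Acvrl1, the endothelial BMP receptor ALK1, averaged 605 ± 35.1 CPM in daily saline and 500.4 ± 20.1 CPM in water (0.27, adjusted p = 0.0277). These were the 2 calls among 37 TGF-beta and BMP genes, 28 of which lay above 0 (median 0.09). Aspn, a small leucine-rich matrix protein of myofibroblasts with mostly shared reads, rose by 0.39 on the log2 scale (adjusted p = 0.0113), and was the only call among 17 smooth muscle and myofibroblast markers, 15 of which lay above 0 (median 0.14).

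The summed level of the elastic fibre and cross-linking genes was 18184 to 19273 CPM in daily saline, against 15349 to 17261 CPM in water, without overlap, and water replicate 3 was the highest of its group. Of 26 tested, 2 cross-linking enzymes rose, Lox (0.23, adjusted p = 0.0497) and Loxl2, which has shared reads (0.27, adjusted p = 0.0395), beside 1.04% of all genes tested that rose. Neither passed without water replicate 3. Eln itself, the elastin gene that makes up most of that sum, averaged 10748 ± 316 CPM in daily saline and 8947 ± 781 CPM in water and did not pass (0.26, adjusted p = 0.142). Collagen chains gave 0 calls of 24 (18 above 0, median 0.05, 1 at an unadjusted p under 0.05, 0 by DESeq2). Cyp26b1, the enzyme that breaks down retinoic acid (chr6:84571414-84593908), had the largest rise among genes named by the rule. It had 55.1, 49.8, 78.3 and 35.02 CPM in daily saline, against 23.9, 21.6, 22.5 and 25.1 CPM in water. The water libraries were tight and low, while daily saline and untreated lungs (47.9, 56.7, 68.2 and 31.6 CPM) were both spread widely above them. Its log2 fold change was 1.22 (SE 0.24, adjusted p = 0.0186), it ranged between 1.00 and 1.39 with 1 library left out and passed in 5 of those 8 fits. No other of the 20 retinoic acid genes passed.

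Of 18 IGF genes 1 rose and 0 fell (8 above 0, median -0.03), and of 39 WNT and hedgehog genes 2 rose and 0 fell (23 above 0, median 0.04). These are 5.56% and 5.13% of the lists, where 1.04% of all genes tested rose and 48.8% lay above 0. Igfbp5, which binds IGF in the matrix, had 744, 736, 904 and 752 CPM in daily saline, against 639, 510.4, 725 and 536 CPM in water (0.38, adjusted p = 0.0183), and the lowest daily saline library was just above the highest water library. Wnt2, a fibroblast ligand for lung epithelium, averaged 44.6 ± 3.66 CPM in daily saline and 33.05 ± 3.81 CPM in water (0.43, adjusted p = 0.0338). Nkd1, a WNT target that dampens the pathway, averaged 155 ± 2.69 CPM in daily saline and 131 ± 7.31 CPM in water (0.24, adjusted p = 0.0218). Cat, the catalase gene, stood out against both other groups. It had 238, 218, 226 and 216 CPM in daily saline, against 187, 164, 189.8 and 195 CPM in water and 202, 171, 184 and 181 CPM in untreated lungs, so that every daily saline library exceeded all 8 others. The log2 fold change was 0.29 over water (adjusted p = 0.0144) and 0.28 over untreated (adjusted p = 0.036).

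Among the gene lists, that of pre-mRNA splicing had the most falls. Of 36 tested genes encoding Clk kinases, splicing factors and transcripts with detained introns, 20 fell and 0 rose (1 above 0, median log2 fold change -0.25), where 1.71% of all genes fell. Like all lists here, this one was chosen with earlier results of these data known, so its count is not a test against all genes. Detained introns are introns that stay in finished nuclear transcripts until Clk kinases and O-GlcNAc signalling release them. Prpf38b, a spliceosome activation factor (chr3:108902807-108911752), had 126, 132, 135 and 134 CPM in daily saline, against 178, 191, 165 and 186 CPM in water and 159, 174, 177 and 192 CPM in untreated lungs. All 4 daily saline libraries were below all 8 others. Its log2 fold change was -0.45 against water (SE 0.058, adjusted p = 0.000335) and -0.42 against untreated (adjusted p = 0.0022). Pnisr, a nuclear speckle protein, fell to 158, 174, 179 and 183 CPM in daily saline, against 230.4, 254, 218 and 247 CPM in water (-0.45, adjusted p = 0.00774). Clk4, a kinase of SR splicing proteins, fell to 51.9, 48.4, 54.2 and 53.6 CPM in daily saline, against 75.7, 81.9, 62.3 and 73.4 CPM in water (-0.49, adjusted p = 0.013). Ogt, the enzyme that adds O-GlcNAc, had 366, 349, 404 and 402 CPM in daily saline, against 510.5, 572, 454 and 528 CPM in water (-0.44, adjusted p = 0.0146). In each of these the injected groups were apart and untreated lungs were near water. Rnpc3 of the minor spliceosome (-0.40), the p53 inhibitor Mdm4 (-0.43), the splicing regulator Tra2a (-0.29), the splicing factor Prpf39 with shared reads (-0.43), Luc7l3 (-0.45) and Son (-0.44) fell as well. Clk1 had a like difference that missed the threshold (-0.45, adjusted p = 0.0586).

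Outside that list, the speckle protein Pnn averaged 111 ± 10.3 CPM in daily saline and 153 ± 10.3 CPM in water (-0.46, adjusted p = 0.0053) and passed with every library left out. So did Stx16, a SNARE of the trans-Golgi network (-0.37), Zc3h7a, a zinc finger protein linked to microRNA processing (-0.39), Spaca6, a sperm membrane protein (-0.87), Ttll4, a tubulin glutamylase (-0.35), and Mllt6, a partner in leukaemia fusions (-0.30).

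The daily saline libraries, in which these splicing genes fell, also had the lower intronic share of the injected groups. Untreated replicates 1 to 4 had intronic shares of 10.9%, 12.3%, 12.2% and 15.5%. The summed levels of the 36 splicing genes in untreated replicates 1 to 4 were 10170, 10225, 10339 and 11329 CPM. Summed over the 36 genes, exon reads were 8435 to 8899 CPM in daily saline, against 9771 to 11255 CPM in water and 10170 to 11329 CPM in untreated lungs. Introns took 23.1% to 25.7% of the reads of these genes in daily saline, against 26.8% to 30.3% in water. The drop in intronic share was general: of 10057 genes with at least 10 intron reads in each of the 8 libraries, 4683 (46.6%) had a lower share in every daily saline library than in any water library and 7 a higher one, and in the splicing list it was 12 of 35 (34.3%). Nuclear RNAs were lower too, with reads counted over the whole gene and scaled to the library's exon reads as in CPM. Malat1, of nuclear speckles, was at 639.9, 1224, 1006 and 1243 in daily saline, against 1350.0, 2162, 1759 and 1944 in water. Neat1, of paraspeckles, was at 585, 587, 641 and 575 in daily saline, against 889.6, 1150.0, 1139 and 1017 in water. Neither overlapped between the groups, and both were picked after their values were seen. With the intronic share as a covariate 0 of the 36 splicing genes passed, the list's median was -0.12 and that of Prpf38b was -0.25 (adjusted p = 0.124). Since the share separates the groups completely, it and the treatment cannot be told apart. Without water replicate 3 there were 20 falls, without daily saline replicate 1 there was 1, without daily saline replicate 2 there were 3, and by DESeq2 there were 24. Taking Xist as a covariate gave 15 falls, and only the libraries low in Xist gave 0 (median -0.29).

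**Figure D3:**
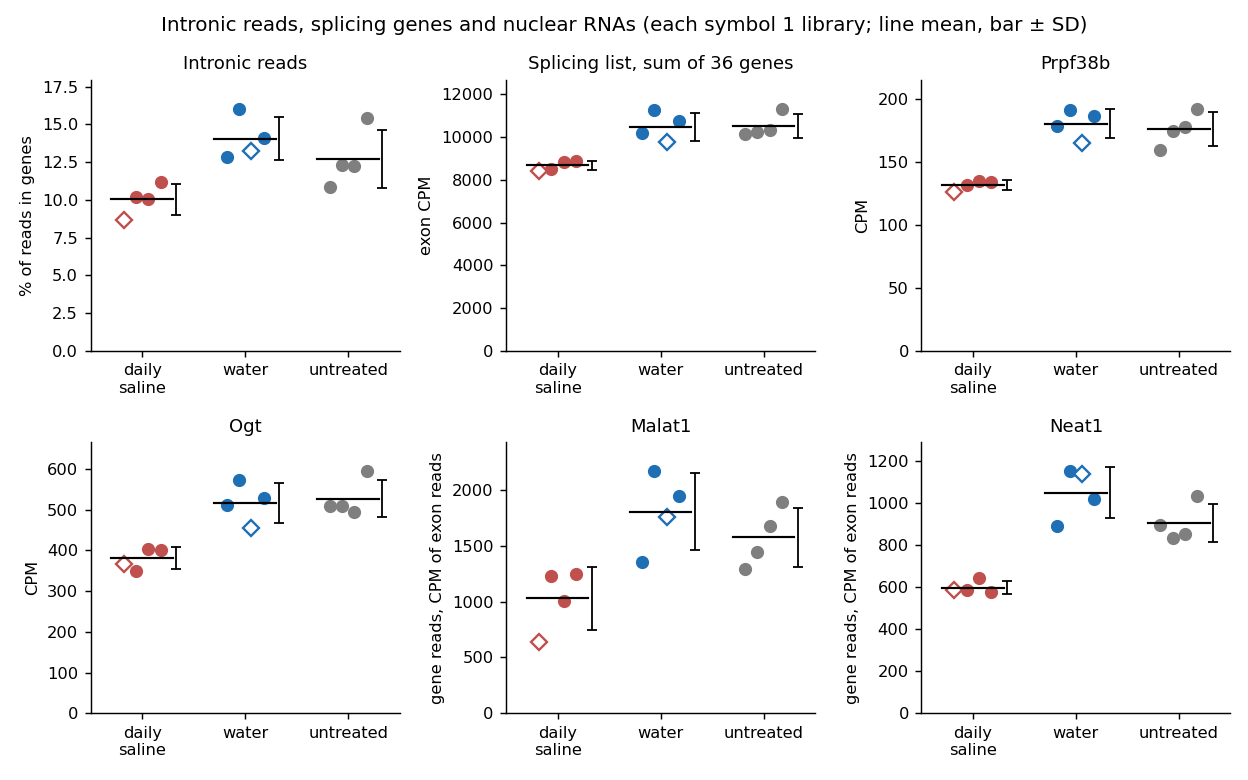
Intronic reads as % of reads in genes, the summed exon CPM of the 36 splicing genes, the CPM of Prpf38b and Ogt, and Malat1 and Neat1 in gene reads scaled to exon reads as in CPM, for each library of the daily saline (red), water (blue) and untreated (grey) groups, with the mean as a line and ± SD as a bar (n = 4). Open diamonds are daily saline replicate 1 and water replicate 3. Daily saline lies below water without overlap in all 6 panels, with the intronic share at 8.69% to 11.2% against 12.9% to 16.04%.

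Several genes of the lymphocyte lists fell too. Of 27 genes of lymphocyte GTPase signalling and adhesion, 5 fell and 0 rose (4 above 0, median -0.21), and of 26 T and NK cell markers 5 fell and 0 rose (4 above 0, median -0.44), beside 1.71% of all genes tested that fell and 48.8% that lay above 0. B cell markers gave 3 falls of 18, Cd22 and Cd37 among them (median -0.21). Hmha1, a GTPase activator of blood cells (chr10:80016672-80031471), had 68.8, 79.6, 75.5 and 64.9 CPM in daily saline, against 100.1, 91.6, 104 and 97.5 CPM in water and 80.02, 80.2, 78.2 and 78.7 CPM in untreated lungs. Water alone was high and the injected groups were apart (-0.45, SE 0.058, adjusted p = 0.000335). Gimap3, a GTPase for lymphocyte survival, had 11.6, 10.2, 11.3 and 10.3 CPM in daily saline, against 18.5, 16.8, 17.1 and 16.2 CPM in water and 11.5, 11.03, 13.8 and 11.01 CPM in untreated lungs (-0.66, SE 0.093, adjusted p = 0.000937). Rasal3, a Ras GTPase activator of T cells, had 5.92, 7.18, 6.90 and 5.04 CPM in daily saline, against 11.01, 13.01, 11.3 and 10.2 CPM in water and 7.27, 7.21, 7.52 and 7.00 CPM in untreated lungs (-0.87, SE 0.13, adjusted p = 0.00243). Thus in all 3 genes every water library was above the 8 libraries of the other groups but untreated lungs were close to daily saline. Water was higher than untreated for Hmha1 (0.31, adjusted p = 0.036) and Gimap3 (0.53, adjusted p = 0.0184), and both passed between the injected groups with the intronic share as a covariate (adjusted p = 0.0135 and 0.0385). Arhgap4 (-0.48) and Arhgap30 (-0.47), also GTPase activators of blood cells, completed the 5.

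The T cell genes that fell included the receptor adaptor Lat, its kinase Lck, the cytokine receptor Il7r and the coreceptor Cd4, all at low levels. Lat had 3.38, 2.74, 3.64 and 2.47 CPM in daily saline, against 5.96, 4.34, 9.32 and 5.24 CPM in water, and 3.14, 3.39, 2.36 and 3.45 CPM in untreated lungs. Water replicate 3 was the highest, the ranges did not overlap and the log2 fold change was -1.04 (SE 0.23, adjusted p = 0.0183). Il7r had 4.34, 4.54, 4.52 and 4.25 CPM in daily saline, against 6.97, 7.49, 5.78 and 8.17 CPM in water (-0.68, adjusted p = 0.035), with water replicate 3 the lowest of its group. Cd3e, which defines T cells, was at 1.98 to 3.26 CPM in daily saline, against 2.72 to 4.05 CPM in water, and did not pass (-0.48, adjusted p = 0.28). Summed, the T and NK markers were at 196 to 233 CPM in daily saline, against 240.5 to 303 CPM in water. Thymus markers, a list that also holds Cd4, were high in 1 library, summing to 94.7 CPM in water replicate 3, against 51.1 to 58.7 CPM in daily saline and 55.0 to 65.6 CPM in the other water libraries. Without water replicate 3, 2 T and NK genes passed, Il7r among them, with a median of -0.39, as did 2 B cell genes and 6 lymphocyte GTPase genes. Without daily saline replicate 1 the counts were 0, 0 and 3, with Xist as a covariate they were 2, 2 and 5, with the intronic share as a covariate 0, 0 and 3, by DESeq2 6, 3 and 6, and with exon and intron reads 9, 4 and 7. Only the libraries low in Xist gave 0, 0 and 1.

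Few myeloid genes passed the threshold, which 2.74% of all genes tested passed. Of 24 monocyte, macrophage and dendritic cell markers 0 passed (7 above 0, median -0.24, 3 at an unadjusted p under 0.05, 0 by DESeq2), and Csf1r, the receptor that defines the lineage, was at 68.1, 66.3, 82.5 and 66.9 CPM in daily saline, against 78.2, 80.2, 87.7 and 98.95 CPM in water, with overlap. Among neutrophil and innate sensing genes, the formyl peptide receptor Fpr2, with shared reads, fell by 0.89 on the log2 scale (adjusted p = 0.0328), and so did the inflammasome sensor Nlrp1b, by 1.27 (adjusted p = 0.0469), which averaged 0.838 ± 0.0689 CPM in daily saline and 2.04 ± 0.515 CPM in water. Of 30 interferon-stimulated genes 1 passed, Slfn3, a Schlafen growth regulator, with 22.4, 28.5, 22.7 and 22.9 CPM in daily saline, against 16.8, 19.4, 13.4 and 16.02 CPM in water (0.56, adjusted p = 0.015). Among 34 cell cycle genes 4 lay above 0 (median -0.18) and 1, the S phase kinase Cdk2, fell (-0.25, adjusted p = 0.0426). Mki67, a marker of cycling cells, was lower without passing (-0.41, adjusted p = 0.116).

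In the circadian clock, some repressor and output genes were lower and an activator gene higher in daily saline. Of 22 clock genes 5 fell and 1 rose (8 above 0, median -0.09), where 1.71% of all genes tested fell and 1.04% rose. Arntl, which encodes the activator BMAL1, had 31.1, 33.7, 34.1 and 33.6 CPM in daily saline, against 27.4, 28.4, 27.5 and 27.02 CPM in water (0.26, SE 0.067, adjusted p = 0.0338). The repressor Per2 had 44.1, 50.2, 50.05 and 49.5 CPM in daily saline, against 57.3, 75.2, 67.4 and 61.5 CPM in water (-0.43, SE 0.095, adjusted p = 0.0193), and Per3 had 69.9, 65.01, 79.4 and 81.5 CPM in daily saline, against 88.1, 112, 97.1 and 98.5 CPM in water (-0.42, SE 0.096, adjusted p = 0.0243). All 3 were without overlap, and untreated lungs overlapped 1 or both injected groups, with Per2 at 51.4, 66.6, 53.3 and 68.4 CPM. Arntl passed in 0 of the 8 fits with 1 library left out, Per2 in 5 and Per3 in 4. Cry2, a repressor with shared reads (-0.20), and the output factor Tef (-0.23) fell as well. The labels give no time of day. Without water replicate 3 there were 3 falls and 0 rises, without daily saline replicate 1 or 2 none of the 22 passed, and by DESeq2 there were 6 falls and 1 rise. With the intronic share as a covariate none passed either, and Per2 and Per3 were then at -0.08 and -0.05. Taking Xist as a covariate gave 3 falls and 0 rises, and with only the libraries low in Xist none passed.

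The clock works through short promoter elements, and the promoters that hold one are shown for the genes above. BMAL1 with CLOCK binds the E-box CACGTG, and TEF and its relatives bind the D-box TTATGTAA. Both strands were searched in the 250 bases before and 50 bases after each RefSeq start site (GRCm38.p6), and 4 of the 6 clock genes had an entry. The E-box occurs in 7.15% and the D-box in 0.938% of 32851 promoters, and in 9.31% and 0.63% of the 13653 promoters of tested genes. Per3 holds the D-box at 205 and at 158 bases before its start site (chr4:151044616-151044915, minus strand), and both are in capitals.
Per3: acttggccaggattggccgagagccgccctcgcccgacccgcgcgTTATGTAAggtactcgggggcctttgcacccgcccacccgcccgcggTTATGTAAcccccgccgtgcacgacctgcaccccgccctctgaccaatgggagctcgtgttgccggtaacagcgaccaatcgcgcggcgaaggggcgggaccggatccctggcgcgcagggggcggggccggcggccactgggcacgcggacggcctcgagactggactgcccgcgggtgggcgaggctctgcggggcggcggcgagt
Tef has 2 start sites, each with 1 E-box in capitals, at 127 bases before the first (chr15:81802423-81802722, plus strand) and at 138 bases before the second (chr15:81811164-81811463, plus strand).
Tef start site 1: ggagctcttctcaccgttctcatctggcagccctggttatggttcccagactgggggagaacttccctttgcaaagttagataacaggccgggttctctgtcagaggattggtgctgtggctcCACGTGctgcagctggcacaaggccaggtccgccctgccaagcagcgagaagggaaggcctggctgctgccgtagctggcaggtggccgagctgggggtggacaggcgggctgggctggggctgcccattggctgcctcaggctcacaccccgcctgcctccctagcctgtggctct
Tef start site 2: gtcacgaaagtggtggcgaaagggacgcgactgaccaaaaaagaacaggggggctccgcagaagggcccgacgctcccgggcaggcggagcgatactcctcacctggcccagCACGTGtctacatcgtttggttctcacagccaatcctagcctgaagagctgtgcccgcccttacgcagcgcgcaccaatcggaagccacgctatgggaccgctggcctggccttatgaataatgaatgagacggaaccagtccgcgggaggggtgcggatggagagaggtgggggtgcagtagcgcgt
In the entries of Cry2 and Arntl these letters were not found. A match describes the letters only, and no binding was measured.

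**Figure D4:**
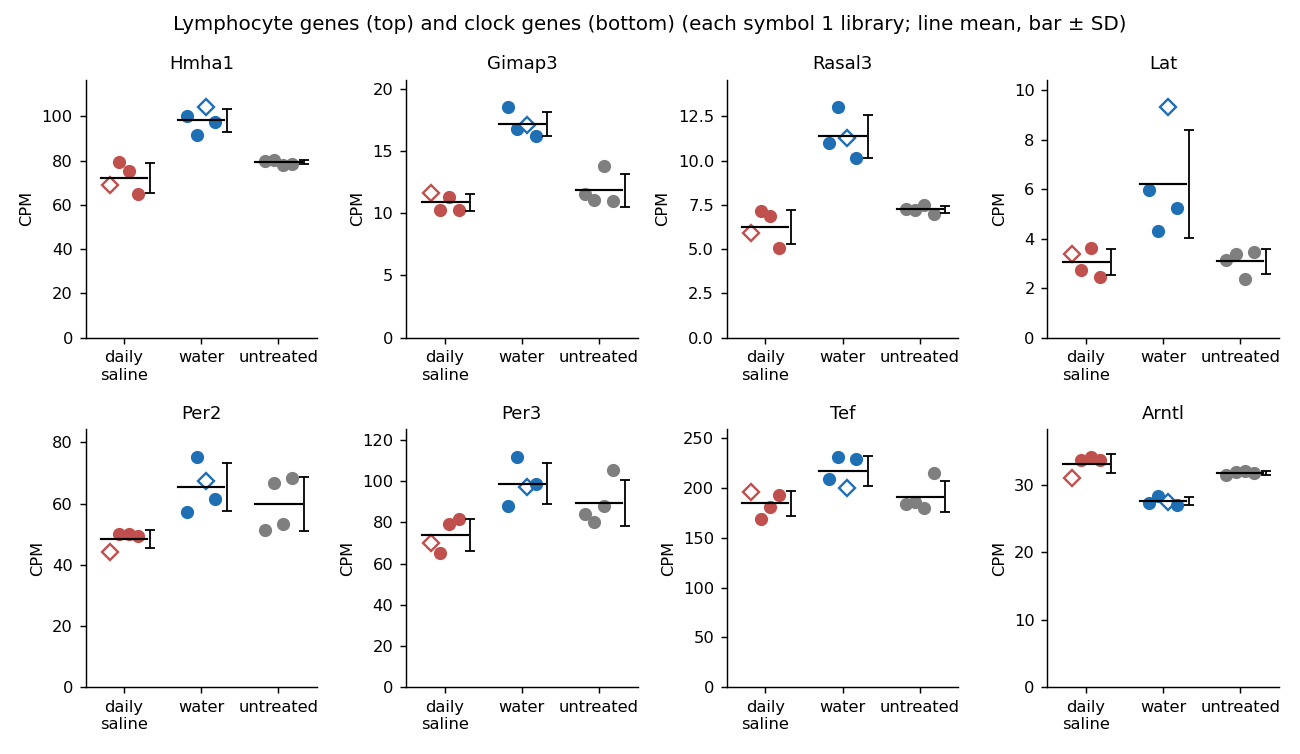
CPM of 4 genes of the lymphocyte lists (top row) and 4 clock genes (bottom row) in each library of the daily saline (red), water (blue) and untreated (grey) groups, with the mean as a line and ± SD as a bar (n = 4). Open diamonds are daily saline replicate 1 and water replicate 3. Hmha1, Gimap3, Rasal3 and Lat are lower in daily saline than in water without overlap, with untreated lungs near daily saline, and Arntl is the panel where daily saline is above water.

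Some of the larger falls were in genes at a few CPM, and several of these were highest in water replicate 3. Ppargc1b, a coactivator of mitochondrial genes, had 2.75, 3.27, 3.89 and 3.07 CPM in daily saline, against 4.65, 6.01, 12.8 and 5.13 CPM in water, with water replicate 3 far above the rest (-1.16, adjusted p = 0.0192). It did not pass without that library (adjusted p = 0.0566). Stac3, of the muscle calcium release complex, had 0.952, 0.739, 0.878 and 0.791 CPM in daily saline, against 1.51, 1.87, 3.02 and 2.62 CPM in water and 2.01, 1.38, 1.72 and 3.23 CPM in untreated lungs (-1.42, adjusted p = 0.0228). Here water replicate 3 was the highest, yet the other 3 water libraries also exceeded daily saline, and the adjusted p without it was 0.0664. The lipid elongase Elovl6 (-0.59), the peroxisomal thiolase Acaa1b with shared reads (-0.90) and the mucin Muc6 (-1.42) passed with all libraries and not without water replicate 3. Adipose markers summed to 713 CPM in that library, against 64.1 to 78.2 CPM in daily saline and 63.4 to 89.7 CPM in the other water libraries. Their part in these falls was not tested.

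Lists on fluid handling and stress responses had no gene past the threshold. None of 31 salt, water and cell volume genes passed (13 above 0, median -0.03, 3 at an unadjusted p under 0.05, 0 by DESeq2), a list that includes the epithelial sodium channel subunits, aquaporins and sodium pump. The same was true of 25 glucocorticoid receptor genes and targets (16 above 0, median 0.06, 3 unadjusted, 2 by DESeq2), 27 immediate early genes (18 above 0, median 0.10, 6 unadjusted, 1 by DESeq2) and 27 heat shock and unfolded protein genes (11 above 0, median -0.01, 6 unadjusted, 1 by DESeq2). Mt2, a metallothionein, came nearest among them, with 6.24, 6.75, 8.66 and 5.64 CPM in daily saline, against 4.04, 4.14, 5.52 and 3.77 CPM in water (0.63, adjusted p = 0.0563), and the immediate early factor Klf4 differed by 0.44 (adjusted p = 0.0816). Alveolar type 2 markers had 0 calls of 18, although 16 lay above 0 (median 0.07), and airway markers had 0 of 17, with 1 unadjusted and 0 by DESeq2 in each list. Alveolar type 1 markers had 1 of 16, which was Vegfa. A gene that missed the threshold is not shown to be equal in the groups: in simulated counts of this comparison 77% of 100 genes changed 1.5-fold were found.

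**Figure D5:**
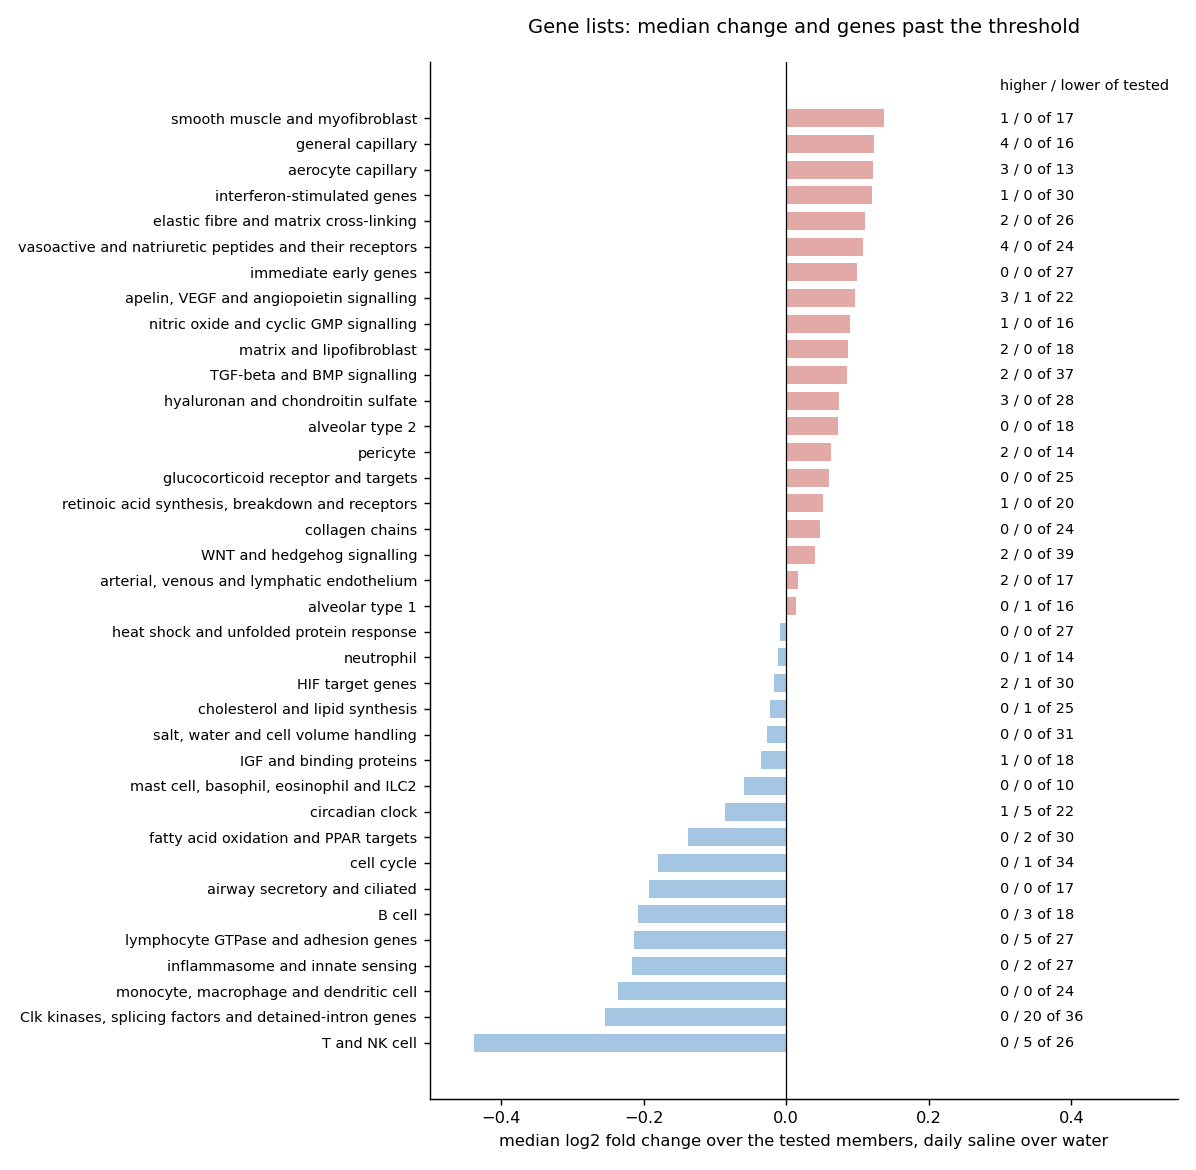
Bars give the median log2 fold change, daily saline over water, of the tested members of 37 gene lists, with the number higher and lower of those tested printed at the right. T and NK cell genes (median -0.44) and splicing genes (median -0.25) lie lowest, and smooth muscle (median 0.14) and both capillary lists (median 0.12) lie at the top.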

How the data were processed

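Whole lung RNA was sequenced from stranded polyA libraries. The submitters' processing notes name bcl2fastq 2.0 for demultiplexing. Which aligner, build and strand setting were used is not given in the sources used here. Counts of reads per gene were deposited by the authors, and total exon counts, which include reads that map to several places, were tested. Of 43003 gene IDs, 97.4% start within 5000 bp of RefSeq GRCm38.p6. Counts of the 20 day 14 libraries, whose 5 groups share 1 estimate of the spread, entered 1 robust quasi-likelihood fit (edgeR 4.0.16, R 4.3.3) after filterByExpr and TMM scaling, with a Benjamini-Hochberg adjusted p under 0.05 as threshold. CPM values are TMM-normalised, and an SE is the size of the log2 fold change over the square root of F. Genes with under 90% unique reads are described as having shared reads.

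In 44 gene lists, calls and medians were counted and no list was tested. The members and lists were chosen with earlier results of these data known. Named genes are up to 15 rises and 15 falls with the smallest p and up to 12 of each by size (ranges apart, mean of at least 1 CPM, predicted names, Xist and Y-linked genes passed over), list members past the threshold (up to 8 a list) and up to 4 further members a list. Malat1 and Neat1 were added after their values were seen. A few genes that the rule names are not reported here.

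Alternatives were each library left out, RLE scaling, 2 other filters, unique reads, exon and intron reads, the 8 libraries alone, the replicate block, Xist or the intronic share as a covariate, low-Xist libraries only, limma 3.58.1 (voom), DESeq2 1.42.0 and a 1.5-fold threshold. Leaving out daily saline replicate 1 and water replicate 3 together was added after the data were seen. On simulated counts with 14115 genes, the test found 77% of 100 genes with a 1.5-fold change and 90% of 100 with a 2-fold change, and 2 of the 169 it called were false. The simulated counts were drawn independently around a shared mean per gene, and the changed genes had at least 1 CPM. They held no other-tissue RNA and no intronic or sex difference between groups, so these rates need not hold for the real libraries.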

Additional observations from a re-analysis of the deposited data

Results flagged for a closer look

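In 176 sets of 4 libraries (library measures, other-tissue lists and the genes named above, in daily saline and in water), 16 had 1 library set apart from the other 3, and water replicate 3 was that library in 6. Chance gives about 1 in 20 in independent sets. Here the sets share libraries and most genes were picked from these same data, so the count is not a test against chance. In water replicate 3 the skeletal muscle markers summed to 599 CPM, against 43.8 to 71.4 CPM in the other water libraries. Its adipose markers summed to 713 CPM, against 63.4 to 89.7 CPM. The same library was high for Eln (10117 CPM, against 8506 to 8588 CPM), Elovl6 (17.5 CPM, against 9.84 to 11.0 CPM) and Ppargc1b (12.8 CPM, against 4.65 to 6.01 CPM), and low for Nox4 (65.4 CPM, against 74.5 to 75.6 CPM). Daily saline replicate 1 was the lowest of its group for Arntl (31.1 CPM, against 33.6 to 34.1 CPM) and Per2 (44.1 CPM, against 49.5 to 50.2 CPM). Daily saline replicate 2 was the highest for Nox4 (94.0 CPM, against 90.2 to 90.7 CPM) and Slfn3 (28.5 CPM, against 22.4 to 22.9 CPM). Daily saline replicate 3 was the highest for Csf1r (82.5 CPM, against 66.3 to 68.1 CPM) and Igfbp5 (904 CPM, against 736 to 752 CPM). Daily saline replicate 4 was the highest for Rnpc3 (41.9 CPM, against 37.5 to 37.9 CPM), and water replicate 1 was the lowest for Flt4 (67.3 CPM, against 69.7 to 70.1 CPM). The share of unique exon reads was highest in daily saline replicate 4 (90.5%, against 90.2% in the others of its group) and in water replicate 2 (90.6%, against 90.3%).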

How the results depend on the processing

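The number of genes past the threshold (389, 147 higher and 242 lower in daily saline) depended on single libraries and on the test. With 1 library left out it ranged between 28 and 276 (12 to 109 higher and 14 to 170 lower), and with daily saline replicate 1 and water replicate 3 both left out it was 73 (27 and 46). With exon and intron reads it was 1270 (628 higher and 642 lower), with limma-voom and quality weights 626 (254 and 372), with DESeq2 582 (270 and 312), and with a 1.5-fold threshold 49 (5 and 44). A fit with the intronic share as covariate called 13 (8 and 5), and with only the low-Xist libraries it was 1 (0 and 1, with 1412 at an unadjusted p under 0.05). With Xist as a covariate and without water replicate 3 it was 267 (76 higher and 191 lower). Where counts fell with fewer libraries, fewer libraries were in the fit, and the cause of the other shifts was not tested. RLE scaling, the 2 other filters, unique reads, the 8 libraries alone and Xist as a covariate gave 325 to 392. RLE scaling shared 387 of the 389 genes, the 2 other filters 318 and 388, and unique reads 337. The 8 libraries alone shared 278, and Xist as a covariate shared 269. Same-numbered libraries share only a number (correlations of 0.066, -0.024, 0.12 and -0.058 for numbers 1 to 4), and the fit with the replicate block called 395 (144 and 251). Of 5579 alternative values of 254 named genes 0 reversed direction past the threshold, 678 lost and 126 gained the threshold. At this depth and group size 77% of 100 simulated 1.5-fold changes were found, and smaller changes were not simulated.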
